A study of Zea mays with 12 samples.

Results

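The genes described here are 4 maize genes of the endoplasmic reticulum (ER) and its protein bodies, taken by gene identifier from the 41430 gene models in the deposited tables. They are bip1 (GRMZM2G114793, also b-70), bip2 (GRMZM2G415007), PDIL1-1 (GRMZM2G091481) and fl1 (GRMZM2G094532, Floury1). All 4 were among the 24941 genes with enough counts to be tested. RNA had been sequenced from whole seeds of the inbred Q319, labelled wild type (WT), and of the transgenic line L100, in 12 libraries. Seeds were taken at 10 and at 15 days after pollination (DAP), which gave 4 groups of 3 libraries. The labels name L100 as transgenic but do not give its transgene or promoter, nor say whether L100 comes from 1 event or whether the replicates are separate plants. P-values therefore measure the spread between these libraries, which may be technical.

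Maize endosperm stores most of its seed protein as zeins. Zeins are made on the rough ER, enter its lumen and pack there into protein bodies that stay bounded by ER membrane. BiP is the HSP70 chaperone of the ER lumen, which holds unfolded chains in cycles of ATP hydrolysis, and it is found at the surface of zein protein bodies. Protein disulfide isomerases make and rearrange disulfide bonds, and the gamma-zeins that form the outer layer of a protein body are rich in cysteine. FL1 is a protein of the protein body membrane that takes part in placing alpha-zeins inside the body. The question put to the data was how far these genes rose between 10 and 15 DAP, when the grain fills, and whether the rise was alike in both lines.

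In B73 RefGen_v3 coordinates, the build given in the submitters' processing notes, bip1 lies on chromosome 5 (69354085 to 69357908, minus strand) and fl1 on chromosome 2 (41853882 to 41854790, minus strand). The gene bip2 lies on chromosome 4 (240596887 to 240600708, plus strand), as does PDIL1-1 (14877109 to 14881938, minus strand). No other listed gene model overlapped any of the 4. How reads that match both BiP genes were divided is not given in the sources used here, so the split between bip1 and bip2 is uncertain and their sum is given beside it.

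Library totals ran from 14014035 to 22370566 counts, and levels are given as CPM (counts scaled to 1000000 per library, with TMM factors), with 3 counts equal to 0.15 to 0.23 CPM. The zein genes, markers of starchy endosperm, summed to 2356 to 12160 CPM at 10 DAP and to 75373 to 148050 CPM at 15 DAP. The starch genes wx1, sh2 and bt2, also such markers, summed to 1460 to 2028 CPM in WT and 539 to 1982.5 CPM in L100 at 10 DAP. At 15 DAP they summed to 13156 to 17427 CPM in WT and 8830 to 10934 CPM in L100. There the starch genes were lower in L100, while the zein sum was higher in L100. The 7 matched embryo gene models, none of them at 0 in any library, summed to 311 to 513 CPM in WT and 232 to 662 CPM in L100 at 10 DAP. At 15 DAP they summed to 982 to 1260 CPM in WT and 1825 to 3075 CPM in L100. The part of embryo RNA in the differences between the lines was not tested, and in whole seeds fewer cells of a type and less RNA per cell cannot be told apart.

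A pair of L100 libraries stood apart for these genes, which was seen from their values. In replicate 3 of L100 at 15 DAP, bip2 was at 320.3 CPM, against 107 and 129.8 CPM in the other replicates. In replicate 2 of L100 at 10 DAP, fl1 was at 6.22 CPM, against 16.9 and 18.4 CPM, and the summed zein genes were at 2356 CPM, against 6343 and 12160 CPM. Results that these libraries decide are given with and without them where both were computed.

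PDIL1-1 was the most abundant of the 4 genes per length at both stages and in both lines. In the deposited FPKM it averaged 480.3 (SD 15.1, n = 3) in WT at 10 DAP and 1115 (SD 321) at 15 DAP, and 456 (SD 98.2) and 867 (SD 136) in L100. The gene bip1 came next at 72.7 FPKM (SD 2.07) and 231 FPKM (SD 43.2) in WT and 73.2 FPKM (SD 5.14) and 151 FPKM (SD 37.8) in L100. The libraries of these 2 genes did not overlap in any group.

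The lower places changed between the stages. At 10 DAP, bip2 averaged 28.2 FPKM (SD 1.34) in WT and 37.5 FPKM (SD 1.13) in L100, and fl1 24.2 FPKM (SD 5.45) and 16.2 FPKM (SD 7.15). The libraries of bip2 and fl1 overlapped in WT, and in L100 all those of fl1 were lower. At 15 DAP, fl1 averaged 137 FPKM (SD 14.7) in WT and 89.0 FPKM (SD 2.91) in L100, and bip2 53.6 FPKM (SD 3.40) and 66.8 FPKM (SD 40.4). Now fl1 stood above bip2 in every WT library, while in L100 they overlapped.

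**Figure D1:**
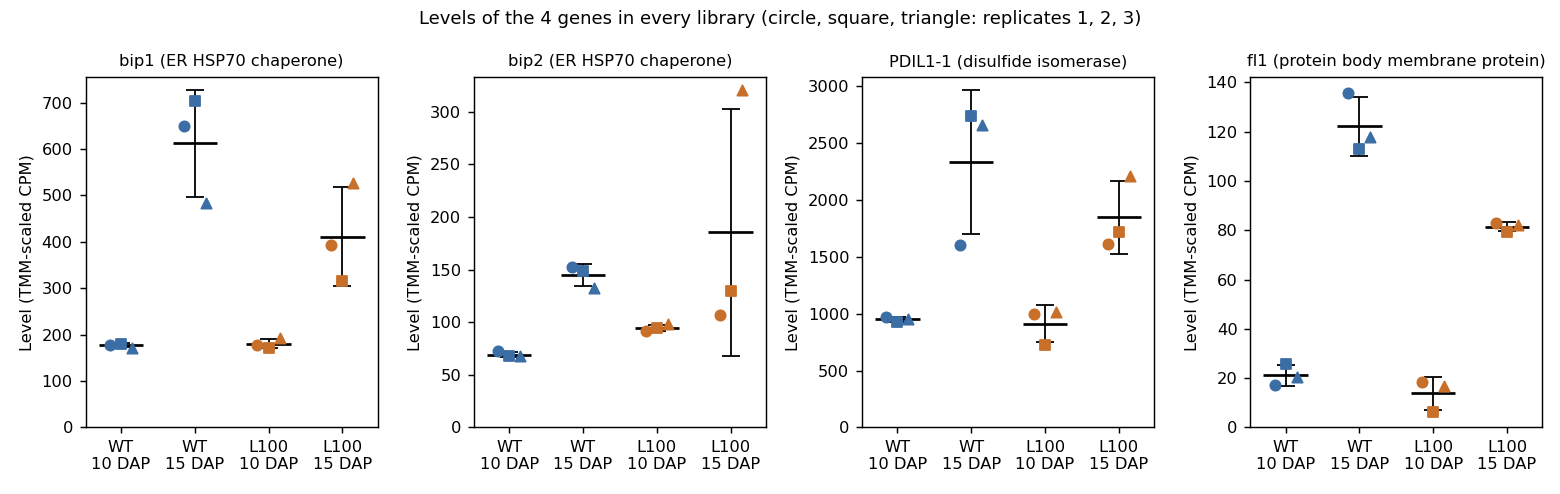
TMM-scaled CPM of bip1, bip2, PDIL1-1 and fl1 in each of the 12 libraries, with the group mean (line) and SD (bars), n = 3; blue is WT and orange L100. Every 15 DAP library lies above every 10 DAP library of the same line for each gene, and the bip2 value of 320.3 CPM in L100 replicate 3 lies far above the other L100 libraries at 15 DAP.

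All 4 genes rose from 10 to 15 DAP in WT and all 4 rose in L100. Of all tested genes, 16.1% were called higher at 15 DAP in WT and 12.2% in L100 (edgeR's quasi-likelihood test, Benjamini-Hochberg adjusted p under 0.05). For each gene and line the libraries of the stages did not overlap, as for 25.6% of tested genes in this direction in WT and 19% in L100. The median log2 change of the 4 genes was 1.54 in WT and 1.10 in L100, beside -0.01 and -0.03 over all tested genes.

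The chaperone gene bip1 stood at 179, 181 and 172 CPM in the WT replicates at 10 DAP and at 649, 704 and 483 CPM at 15 DAP. In L100 it stood at 178, 172 and 192 CPM at 10 DAP and at 392, 315 and 527 CPM at 15 DAP. The 10 DAP libraries of both lines lay close together, and at 15 DAP the lines overlapped through the lowest WT and the highest L100 library. The rise was 3.46-fold in WT (log2 1.79, SE 0.19, adjusted p = 6.22e-05) and 2.28-fold in L100 (log2 1.19, SE 0.19, adjusted p = 0.000977, edgeR). With single libraries left out the log2 rise in L100 ranged from 0.97 to 1.35.

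The gene bip2 stood at 72.3, 67.9 and 67.7 CPM in WT at 10 DAP and at 152, 149 and 133 CPM at 15 DAP. In L100 it stood at 91.9, 94.2 and 97.9 CPM at 10 DAP and at 107, 129.8 and 320.3 CPM at 15 DAP. The replicates were close to each other in every group but L100 at 15 DAP, where 1 library was well over the others. The rise was 2.09-fold in WT (log2 1.06, SE 0.32, adjusted p = 0.0261) and 1.96-fold in L100 (log2 0.97, SE 0.32, adjusted p = 0.0454, edgeR). Without L100 15 DAP replicate 3 the L100 change was 0.32 on the log2 scale and was no longer called (adjusted p = 0.0666, edgeR). The call in L100 also ended without most other single libraries, and that in WT ended when any of 5 libraries was left out. With both genes summed, BiP rose by log2 1.62 in WT (SE 0.22, adjusted p = 0.000261) and 1.12 in L100 (SE 0.22, adjusted p = 0.0032, edgeR). In L100 at 15 DAP the sum was 847 CPM in replicate 3, against 499 and 444 CPM in the other replicates. The summed fit was not rerun without that library.

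PDIL1-1, a disulfide isomerase, stood at 969, 925 and 955 CPM in WT at 10 DAP and at 1605, 2741 and 2660.0 CPM at 15 DAP. In L100 it stood at 1000.2, 725 and 1012 CPM at 10 DAP and at 1611, 1722 and 2212 CPM at 15 DAP. At 15 DAP, WT replicate 1 was at the level of the lowest L100 library, so the lines overlapped. The rise was 2.46-fold in WT (log2 1.30, SE 0.22, adjusted p = 0.00105) and 2.03-fold in L100 (log2 1.02, SE 0.22, adjusted p = 0.00555, edgeR).

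The membrane protein gene fl1 stood at 17.19, 25.8 and 20.4 CPM in WT at 10 DAP and at 136, 113 and 118 CPM at 15 DAP. In L100 it stood at 18.4, 6.22 and 16.9 CPM at 10 DAP and at 82.8, 79.4 and 82.0 CPM at 15 DAP. Of the 4 genes it had the lowest mean FPKM at 10 DAP and the largest log2 change in both lines. At 15 DAP every L100 library was below every WT library. The rise was 5.79-fold in WT (log2 2.53, SE 0.31, adjusted p = 0.000207) and 5.88-fold in L100 (log2 2.56, SE 0.32, adjusted p = 0.000315, edgeR). Without L100 10 DAP replicate 2, the library low in fl1 and in zeins, the L100 rise was 2.21 on the log2 scale.

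The test of the difference between the rises called none of the 4 genes, beside 0.545% of all tested genes. At an unadjusted p under 0.05 the count was 1, beside 16.6% of tested genes. It was 0 by DESeq2, beside 4.33% of tested genes, and 0 by limma-voom, beside 0.261%. The gene below 0.05 unadjusted was bip1, whose log2 rise in L100 was 0.60 smaller than in WT (95% interval of the difference -1.20 to -0.001, adjusted p = 0.274, edgeR). With single libraries left out this difference ranged from -0.82 to -0.44 and was not called. For PDIL1-1 the difference was -0.28 (-0.98 to 0.42, adjusted p = 0.699), and for fl1 it was 0.02 (-0.949 to 0.996, adjusted p = 0.988, edgeR). For bip2 it was -0.09 (-1.12 to 0.94, adjusted p = 0.944, edgeR) and without L100 15 DAP replicate 3 it was -0.74 (adjusted p = 0.0605). The intervals were wide, so that rises differing by about 2-fold lay inside those of bip1 and bip2, where L100 is lower, and near the outer ends of those of fl1 and PDIL1-1.

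**Figure D2:**
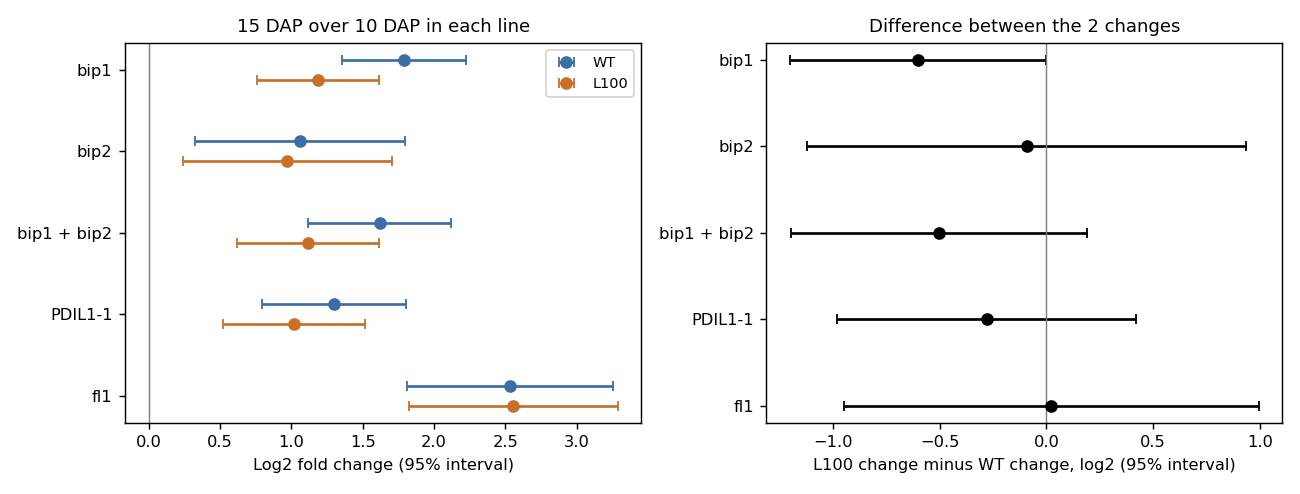
Left, log2 change from 10 to 15 DAP in WT (blue) and L100 (orange) with 95% intervals for the 4 genes and for the summed BiP genes; right, L100 change minus WT change with its 95% interval. All 10 intervals on the left lie above 0; on the right that of bip1 ends at -0.001 and the others span 0.

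Between the lines at the same stage, none of the 4 genes passed either. These comparisons share libraries with those between the stages. At 10 DAP, where 3% of tested genes were called by edgeR, the count was 0 by edgeR, 0 unadjusted, 0 by DESeq2 and 0 by voom. Over all tested genes the unadjusted, DESeq2 and voom shares at 10 DAP were 19.9%, 8.04% and 2.87%. At 15 DAP, where 6.66% were called, it was 0 by edgeR, 1 unadjusted, 1 by DESeq2 and 0 by voom. Of all tested genes 22.9% were below 0.05 unadjusted and 11.6% were called by DESeq2, so 1 of 4 unadjusted is near the background. That gene was bip1, at 612 CPM (SD 115, n = 3) in WT and 411 CPM (SD 108) in L100. Its log2 difference was -0.57 (SE 0.18, adjusted p = 0.087, edgeR). It was called by DESeq2 (-0.57, adjusted p = 0.0305) and, in edgeR, without L100 15 DAP replicate 3 (-0.79, adjusted p = 0.0228).

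For bip2 all 3 L100 libraries at 10 DAP (91.9 to 97.9 CPM) were above all WT libraries (67.7 to 72.3 CPM), as for 13.3% of tested genes. The log2 difference was 0.45 (SE 0.32, adjusted p = 0.461), and without L100 15 DAP replicate 3 it was 0.45 (SE 0.10, adjusted p = 0.0324, edgeR). That library is not in the 10 DAP groups; it entered the fit through the shared estimate of the spread. At 15 DAP the difference of bip2 was 0.36 (SE 0.32, adjusted p = 0.548), and -0.29 without that library. For fl1 all 3 L100 libraries at 15 DAP were below all WT libraries, as for 15.4% of tested genes (-0.59, SE 0.30, adjusted p = 0.27, edgeR). At 10 DAP the fl1 difference was -0.61 (SE 0.31, adjusted p = 0.3), and -0.27 without L100 10 DAP replicate 2. The 15 DAP difference of fl1 was called without L100 10 DAP replicate 2 (-0.56, adjusted p = 0.0373, edgeR). This library, too, is outside the groups compared and entered the fit through the shared estimate of the spread. PDIL1-1 differed by -0.06 at 10 DAP (adjusted p = 0.914) and by -0.34 at 15 DAP (adjusted p = 0.388, edgeR).

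The balance within the BiP pair was lower in bip2 at 15 DAP and higher in bip2 in L100. In WT, bip2 made up 28.8%, 27.3% and 28.2% of the summed BiP counts in the 10 DAP replicates and 19.0%, 17.5% and 21.6% at 15 DAP. In L100 it made up 34.01%, 35.5% and 33.8% at 10 DAP and 21.4%, 29.2% and 37.8% at 15 DAP. The stages did not overlap in WT and overlapped in L100. The lines did not overlap at 10 DAP. At 15 DAP 1 L100 library was just below the highest WT library, and the other L100 libraries were above all WT libraries.

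From 10 to 15 DAP the share changed by -6.86 percentage points (-8.77 in WT and -4.94 in L100), with p = 0.02 by a two-sided exact permutation test of stage labels within each line. It was 8.20 points larger in L100 than in WT (6.29 at 10 DAP and 10.1 at 15 DAP), with p = 0.01 by the same exact test of line labels within each stage. Adjusted over these 2 tests, both exact permutation p-values were 0.02, where 400 arrangements allow 0.005 at the least. With any 1 library left out the differences stayed between -8.94 and -4.84 points and between 6.11 and 10.2 points, with exact p up to 0.045 and 0.025. How shared reads were assigned bears on this share and was not tested.

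**Figure D3:**
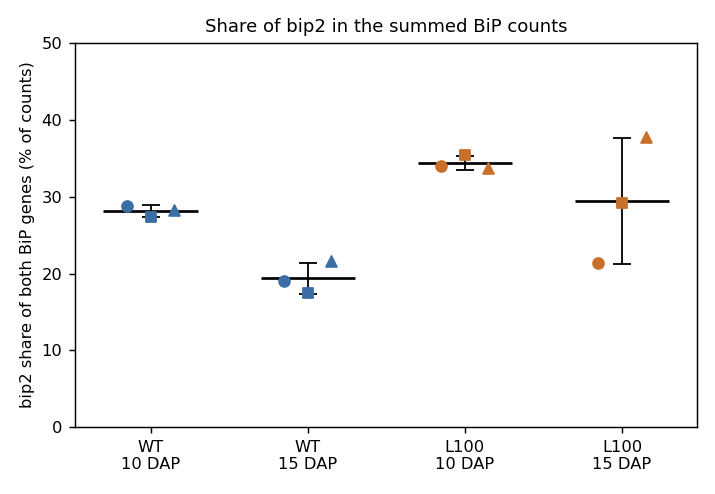
Share of bip2 in the summed counts of both BiP genes, in percent, for each library, with the group mean (line) and SD (bars), n = 3. The share averages 28.1% and 19.4% in WT and 34.4% and 29.5% in L100 at 10 and 15 DAP, with the widest spread in L100 at 15 DAP.

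The 9 zein genes found by name code for proteins that enter the ER, and each of these genes rose in both lines. Summed, they went from 7825 CPM (SD 2894, n = 3) to 90950.0 CPM (SD 13490.0) in WT, 11.6-fold. In L100 they went from 6953 CPM (SD 4931) to 118300.0 CPM (SD 25740.0), 17.0-fold, or 12.8-fold without L100 10 DAP replicate 2 and 14.9-fold without L100 15 DAP replicate 3, a comparison added after the values were seen. Zein genes form families of near-identical copies, so single zein values are uncertain, and the sum covers only the 9 named models.

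Set against this sum, each of the 4 genes was lower at 15 DAP than at 10 DAP in both lines. Any gene that rose less than the zein sum has a lower ratio at 15 DAP, so this fall is not particular to the 4 genes. Per 1000 zein CPM, bip1 went from 24.5 to 6.70 CPM in WT and from 39.3 to 3.46 CPM in L100. PDIL1-1 went from 132 to 26.4 CPM and from 183 to 15.7 CPM, and bip2 from 9.65 to 1.61 CPM and from 21.0 to 1.48 CPM. The L100 means at 10 DAP rest on replicate 2, and without it they were 22.5 CPM for bip1, 121 CPM for PDIL1-1 and 11.5 CPM for bip2. For bip1 and PDIL1-1 they were then below the WT means and no longer above them. The step was smallest for fl1, from 2.80 to 1.36 CPM in WT and from 2.27 to 0.71 CPM in L100. The stage step of these ratios was not tested, and its share over all tested genes was not computed.

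At 15 DAP the ratio of bip1 to zein was 6.41 to 7.13 in the WT libraries and 3.04 to 3.79 in the L100 libraries, and that of fl1 1.15 to 1.56 and 0.55 to 0.80. Neither pair of groups overlapped at 15 DAP, and both overlapped at 10 DAP. The summed zeins alone separated the lines at 15 DAP, at 75373 to 98861 CPM in WT and 103380.0 to 148050.0 CPM in L100. Of all tested genes 31.4% had a ratio to zein lower in every L100 library than in every WT library at 15 DAP. Averaged over both stages the log2 ratio differed between the lines by -0.64 for fl1 (-0.34 at 10 DAP and -0.95 at 15 DAP, two-sided exact permutation test within stages, p = 0.02, adjusted over 5 ratios p = 0.1). The average was -0.26 for bip1, 0.34 for bip2 and -0.18 for PDIL1-1 (adjusted exact p = 0.8 for each) and -0.10 for summed BiP (0.855). These averages join opposite signs at 10 and 15 DAP, of 0.43 and -0.96 for bip1, 0.86 and -0.19 for bip2, 0.33 and -0.68 for PDIL1-1 and 0.56 and -0.76 for summed BiP. Without L100 10 DAP replicate 2 the averages were -0.56 for bip1, 0.02 for bip2, -0.41 for PDIL1-1, -0.40 for summed BiP and -0.71 for fl1. None of the 5 averages was called, and the stages were not tested apart, since 3 libraries against 3 allow a p of 0.1 at the least. Against the summed starch genes in place of zeins, the sign turned for bip1, PDIL1-1 and summed BiP, to 0.28, 0.37 and 0.44, and bip2 stood at 0.88 (adjusted exact p = 0.05).

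**Figure D4:**
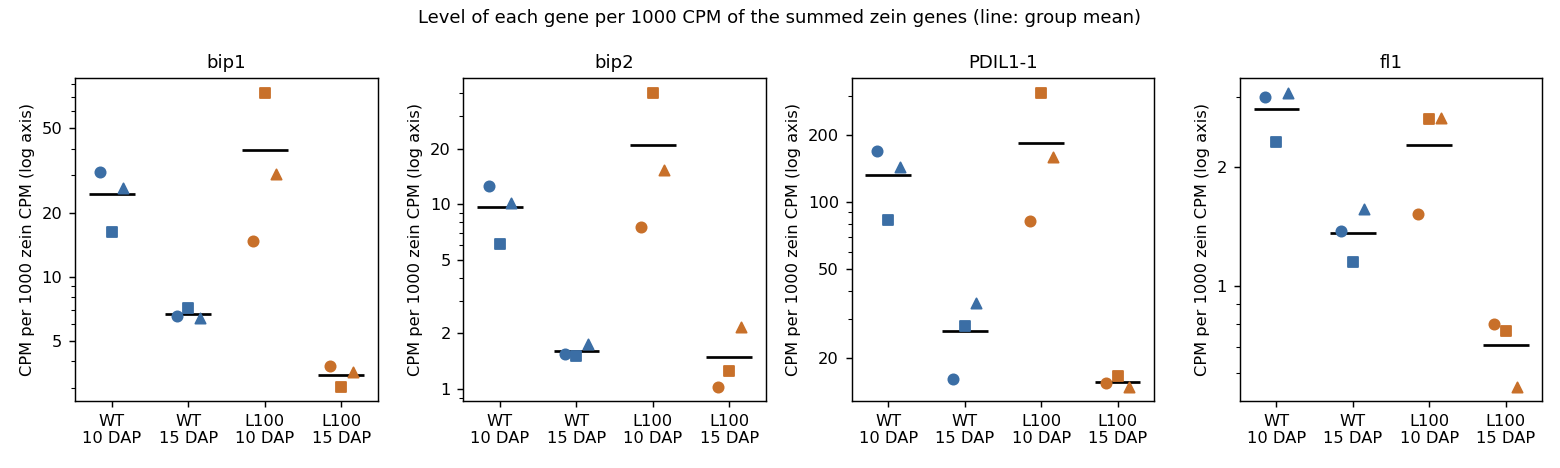
Level of each gene per 1000 CPM of the 9 summed zein genes in each library, on a log axis; the line is the group mean and the symbols are the replicates. Every 15 DAP library lies below every 10 DAP library of its line, and for bip1 and fl1 the L100 libraries at 15 DAP lie below the WT libraries.

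Other genes of ER folding did not all move with BiP and PDIL1-1. Of 16 matched gene models of chaperones, calreticulin and disulfide isomerases, which include bip1, bip2 and PDIL1-1, 15 were tested. In WT 6 rose, 2 fell and 7 did not pass, and in L100 5 rose, 3 fell and 7 did not pass. Of all tested genes 15.3% were called lower at 15 DAP in WT and 12.6% in L100. The median log2 change of the list was 0.23 in WT and 0.10 in L100, beside -0.01 and -0.03 over all tested genes. With a single library left out 3 to 6 rose in WT and 3 to 4 in L100.

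The disulfide isomerase family gene pdi8 stood at 81.1, 73.9 and 73.7 CPM in WT at 10 DAP and at 276, 243 and 184 CPM at 15 DAP, and in L100 at 65.1, 79.7 and 69.6 CPM and 123, 105 and 193 CPM. Its stages did not overlap in either line, and it rose by log2 1.62 in WT (SE 0.21, adjusted p = 0.000238) and 0.98 in L100 (SE 0.21, adjusted p = 0.00611, edgeR). In the same family pdi2 fell by 0.98 in WT (adjusted p = 0.00435) and by 0.98 in L100 (adjusted p = 0.00598), and pdi7 by 0.69 and 0.54 on the log2 scale (adjusted p = 0.00539 and 0.0246, edgeR). The calreticulin gene crt2, a calcium-binding chaperone of glycoproteins, had changes of -0.36 (adjusted p = 0.195) and -0.38 (adjusted p = 0.199). Of the 15 genes 0 were called between the lines at either stage and 0 in the difference between the rises. Unadjusted, 0 were below 0.05 at 10 DAP, 3 at 15 DAP and 2 for the difference, where 22.9% and 16.6% of tested genes were. At 15 DAP 2 were lower by DESeq2, and all other counts by DESeq2 and voom were 0.

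Genes of ER stress signalling and of degradation from the ER were few, with 3 matched. The gene bzip17, whose Arabidopsis counterpart is a membrane-held transcription factor of the unfolded protein response, rose from 33.9 to 174 CPM in WT (log2 2.36, SE 0.22, adjusted p = 3.01e-05). The L100 means were 28.8 and 207 CPM, a rise as well (log2 2.84, SE 0.22, adjusted p = 2.26e-05, edgeR). The derlin gene der2, for a membrane protein of the export channel for misfolded chains, rose by 1.04 and 0.92 (adjusted p = 0.000359 and 0.0011). The related derlin1 rose by 0.99 in WT (adjusted p = 0.00741) and had a change of 0.56 in L100 (adjusted p = 0.101, edgeR). The difference between the lines in these rises was called for 0 of the 3 genes, with 0 below 0.05 unadjusted, 0 by DESeq2 and 0 by voom. Between the lines at 10 DAP 0 were called and 0 were below 0.05 unadjusted (median log2 difference -0.21). At 15 DAP 0 were called (edgeR) and 2 were below 0.05 unadjusted, where 22.9% of tested genes were. The median log2 difference there was -0.34, with 1 of the 3 genes above 0. With single libraries left out 0 to 1 were called lower at 15 DAP. The list of ER entry and export matched 1 gene, dad1, a subunit of the oligosaccharyl transferase, with changes of -0.11 and -0.17 (adjusted p = 0.698 and 0.552).

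**Figure D5:**
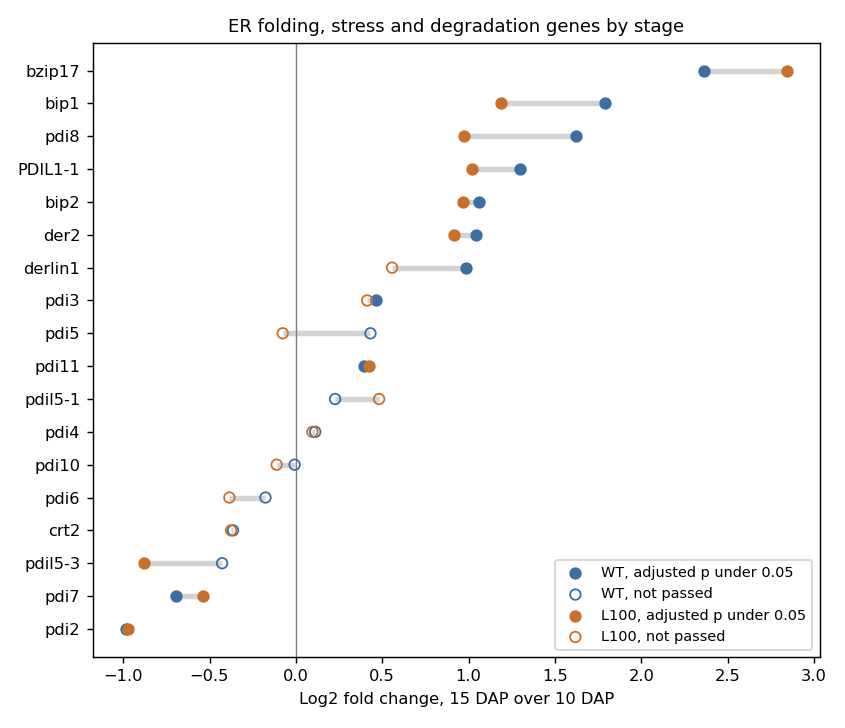
Log2 change from 10 to 15 DAP of the 15 tested ER folding genes and the 3 ER stress and degradation genes, in WT (blue) and L100 (orange); filled points have an adjusted p under 0.05. The genes bzip17, bip1, pdi8, PDIL1-1, bip2 and der2 are filled and right of 0 in both lines, and pdi2 and pdi7 are filled and left of 0 in both.

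Replicate 3 of L100 at 15 DAP, the library high in bip2, was also high in some other genes of the ER and of the protein body, and low in others. This library was compared with its 2 group mates after the values had been seen, as a description. Of the 15 ER folding genes 10, bip2 among them, were above both other replicates and 4 below both, with a median log2 ratio of 0.23. Of the 3 stress and degradation genes all 3 were above both (0.70). Of the 11 protein body and zein genes 7 were above both and 2 below both (0.45), while fl1, at 82.0 CPM, lay between its group mates. Of all tested genes 42.7% were above both (0.01). The gene derlin1 was at 75.1 CPM, against 34.9 and 41.2 CPM, pdi8 at 193 CPM against 105 and 123 CPM, and bzip17 at 278 CPM against 166 and 176 CPM. The part of this library's composition in the L100 values was not tested.

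The list of protein body proteins and zeins, which includes fl1, held 11 genes and all 11 rose in both lines (medians 4.20 and 4.59). Its other gene that is no zein, o10, a protein that orders zeins within the protein body, rose by log2 1.76 in WT (SE 0.15, adjusted p = 2.23e-05) and 1.59 in L100 (SE 0.15, adjusted p = 5.3e-05, edgeR). The changes of fl1 lay between those of o10 and the list's median in both lines. None of the 11 was called between the lines at 10 or 15 DAP (edgeR). At an unadjusted p under 0.05 there were 2 and 1, where 19.9% and 22.9% of tested genes were. By DESeq2 0 were called at each stage, and by voom 0 at 10 DAP and 1, as higher, at 15 DAP.

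Heat shock proteins of the cytosol and organelles, which include HSP70 relatives of BiP outside the ER, were followed as a list for comparison. Of 15 genes, 11 rose in WT, and in L100 11 rose and 3 fell. At 15 DAP 13 of the 15 were lower in L100 than in WT, with a median log2 difference of -1.78, where 3.09% of tested genes were called lower. Leaving out single libraries gave 8 to 13. Summed, these genes were at 11479 to 22171 CPM in WT and at 7002 to 9101 CPM in L100 at 15 DAP. For the 4 ER genes the same comparison gave 0 calls, with a median of -0.46.

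Genes with the most similar profile were found by the root mean square (RMS) distance of centred log2 CPM over the 12 libraries, among 16673 genes. For bip1 the nearest gene with an informative name was pdi8 (0.17, rank 2), where the median distance of all genes was 0.84. The others were nrx1 (0.27) and NF-YA7 (0.27), and the nearest of all was GRMZM2G086964 (0.17). PDIL1-1 was 153rd from bip1 (0.33) and bip2 only 869th (0.48).

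For bip2 the nearest named genes were GLK17 (0.28), zpu1 (0.29), the starch debranching pullulanase, and RAB2A (0.30), behind GRMZM2G032047 (0.21). For PDIL1-1 they were VTC2 (0.17), PLTZ11 (0.21) and PP2C (0.22), with GRMZM2G083847 (0.16) nearest. For fl1 they were sh2 (0.31), the large subunit of ADP-glucose pyrophosphorylase, SH-1 (0.31), a sucrose synthase, and ss1 (0.36), a starch synthase, behind GRMZM2G071433 (0.23). The median distance of all genes from fl1 was 1.43. The 12 libraries hold a stage step in every line, so genes that changed alike between the stages come out as near.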

How the data were processed

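RNA-seq tables of 12 libraries of whole maize seeds were used. Per the labels' protocols, RNA came from a CTAB extraction and went into Illumina libraries. The submitters' processing notes name Bowtie 0.12.2 and B73 RefGen_v3. The quantifier, annotation release, strand setting and read filtering were not given in the sources used here. Per the file headers, the authors deposited a count per gene, taken as an estimated count written as a whole number, an FPKM and a normalized signal. The deposited FPKM served for levels between genes and for an alternative, and the deposited signal was not used. The test for counts was kept for these estimates.

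Counts were fitted with edgeR 4.0.16 in R 4.3.3 (TMM, filterByExpr, robust quasi-likelihood, 1 mean per group, all 12 libraries, 24941 genes), with Benjamini-Hochberg adjustment and a threshold of 0.05. SE is the size of the log2 change divided by the square root of F, and 95% intervals use 8 residual degrees of freedom. Floors cover counting error only. The 5 comparisons were recomputed with DESeq2 1.42.0 and limma 3.58.1 (voom, and log2(FPKM + 1) or log2(FPKM + 0.1)). They were also recomputed with RLE scaling, library totals, other filters (none, or 5 CPM in 3 libraries) and a replicate block. Further settings were 2 groups alone, summed BiP, and each library left out. The bip2 share was recomputed from FPKM and with each library left out. The zein ratios were recomputed without the most abundant zein gene, with starch genes in place of zeins, and with each library left out. The steps were tested on simulated counts for the stage change in WT. Of 100 genes changed 2-fold 41% were called, and of 100 changed 4-fold 82%, while 3.9% of the calls were false. Gene names came from a RefSeq table (Zm-B73-REFERENCE-NAM-5.0), which matched 18021 models. Of 277 list names 85 matched a model, and 3 models that are regulators or name clashes were dropped from the protein body list.

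The members and lists were chosen with earlier results of these data known. From each list the genes named were up to 5 past the threshold with the largest changes; pdi7, crt2, dad1, o10 and derlin1 in L100 were added after their values were seen. As genes of like profile, the 3 nearest informative names and the nearest gene were taken, with at least 5 CPM.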

Additional observations from a re-analysis of the deposited data

How the results depend on the processing

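The rises of bip1, PDIL1-1 and fl1 were called in both lines under every alternative run. The call of bip2 in L100 (0.97) ended with voom (0.80), library totals (0.64), no filter (0.98), FPKM with either pseudocount (0.66 and 0.67) and the 2 groups alone (0.98), and without 10 of the 12 libraries (0.32 to 0.997); over all 12 it ranged from 0.32 to 1.25. In WT (1.06) it ended with library totals (0.74) and without 5 of the 12 libraries (1.01 to 1.07); over all 12 it ranged from 1.01 to 1.12. Library totals moved the median log2 change of all genes from -0.01 to -0.33 in WT and from -0.03 to -0.33 in L100. The share of calls that were higher moved from 51.2% to 21.3% and from 49.2% to 20.3%. They also turned PDIL1-1 at 10 DAP to 0.011, and in the ER folding list 3 rose and 4 fell in WT and 3 rose and 5 fell in L100.

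At 15 DAP bip1 was called by DESeq2 (-0.57) and ranged from -0.79 to -0.42 without single libraries. The bip2 difference turned with BiP summed (-0.34) and without L100 15 DAP replicate 3 (-0.29; range -0.29 to 0.63). The fl1 difference was called with the 2 groups alone (-0.57) and without L100 10 DAP replicate 2 (range -0.64 to -0.51). The count of genes called there was 1 by DESeq2, 1 with 2 groups alone and 0 to 1 without single libraries. At 10 DAP it was 0 to 1, with bip1 at -0.033 (turned also at -0.013) to 0.057, bip2 at 0.41 to 0.46, fl1 at -0.89 to -0.27 and PDIL1-1 at -0.15 to 0.076. The difference of the rises ranged from -0.74 to 0.19 for bip2 (0.19 and 0.11 where turned) and from -0.30 to 0.33 for fl1 (-0.30, -0.12, -0.03 and -0.004 where turned). It has no value with 2 groups alone. Relative to zeins, bip1 ranged to 0.017, PDIL1-1 to 0.064 and summed BiP to 0.19 (0.007 where it also turned), from -0.56, -0.41 and -0.40; with starch genes they were 0.28, 0.37 and 0.44. The causes were not tested.

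No shared effect of the replicate number was seen: deviations of same-numbered libraries correlated at -0.11 to 0.03. The labels do not say whether a number marks a shared plant, ear or day, so pairing by design remains unknown. With the replicate block bip2 in L100 was 0.89 (adjusted p = 0.0759, edgeR), the 1 call of a member that changed. In all, 250 of 267 values under other settings and 349 of 384 without single libraries kept direction and call, or for a count stayed within 1.5 times. With 3 libraries a group, and 116 counts of fl1 in its lowest library, the intervals of the difference between rises reached about 2-fold. Differences of that size or smaller could not be settled, nor somewhat larger ones for bip1 and bip2 where L100 is lower.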

Other observations

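Regulators of endosperm storage genes were followed as a list of 7. In WT o2, pbf1 and ohp2 rose, and in L100 o2, pbf1 and nkd1 rose; the others did not pass. The bZIP factor gene o2 (opaque2), which activates alpha-zein genes, was at 20.9, 43.6 and 68.9 CPM in WT at 10 DAP and at 457, 262 and 197 CPM at 15 DAP. In L100 it was at 24.5, 7.67 and 42.1 CPM and at 121, 113 and 125 CPM. At 15 DAP every L100 library was below every WT library, as for 15.4% of tested genes (log2 difference -1.35, adjusted p = 0.187, edgeR). The rise was log2 2.78 in WT (SE 0.60, adjusted p = 0.00586) and 2.28 in L100 (SE 0.59, adjusted p = 0.0181, edgeR). The DOF factor gene pbf1, which acts with o2, rose by 0.91 (adjusted p = 0.000891) and 1.07 (adjusted p = 0.000502, edgeR). Between the lines ohp1 was lower in L100 at 10 DAP (-0.69, adjusted p = 0.00853) and 15 DAP (-0.53, adjusted p = 0.0197), and ohp2 at 15 DAP (-0.42, adjusted p = 0.0421, edgeR). With single libraries left out 0 to 1 of the 7 were lower at each stage.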
